A study of Mus musculus with 8 samples.

Results

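ATAC-seq, an assay of open chromatin by transposase cutting, found 1610 autosomal regions with a peak in at least 3 of the 4 wild-type (WT) lists and in none of the 4 lists from alveolar macrophages (AMs) without RXRα and RXRβ (KO). They were 2.00% of the 80340 autosomal regions formed by merging the peaks of all 8 lists wherever peaks shared at least 1 base, and 82424 regions were formed with the X chromosome included. The presence of peaks in WT lists and their absence from KO lists chose these WT-only regions, so that contrast is described at them and not tested. The same rule with the genotypes exchanged gave 512 KO-only regions, 0.637% of the autosomal regions. Most WT-only regions were weak sites far from transcription start sites (TSSs). A few were strong, and several of those stood together upstream of Kcnj16.

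All animals carried floxed Rxra and Rxrb alleles. The KO libraries came from adult CD11cCre+ Rxrabfl/fl mice, in which Cre is driven by the CD11c promoter and so acts in CD11c-expressing cells in general, and the WT libraries from adult CD11cCre- Rxrabfl/fl mice. AMs were obtained by bronchoalveolar lavage and sorting, with 4 libraries per genotype (WT 1_2, 1_3, 3 and 4, and KO 1_2, 1_3, 2 and 3). The authors called peaks separately in each library. Absence of a peak means only that a site did not reach the caller's threshold, and in sorted cells a smaller share of cells with an open site cannot be told apart from less opening in each cell. The study used mice of both sexes, and the labels do not give the sex behind each library. At Xist and Firre, 2 X-linked loci known to be open on the inactive X chromosome of female cells, the lists divided by genotype. The KO lists each held a peak in 3 of 3 Xist regions and in 16 to 19 of 21 Firre regions, against 0 or 1 Xist region and 3 Firre regions in each WT list. No list held a peak on the Y chromosome. A difference of sex between the groups and the loss of RXR therefore cannot be told apart at any region described here.

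Retinoid X receptors are nuclear receptors that bind DNA as dimers, with themselves or with partners such as PPARγ, the liver X receptors and the vitamin D receptor. The classic site for RXR homodimers and for RXR with PPARγ is the DR1 element, a direct repeat of the half-site AGGTCA spaced by 1 base, while RXR with a liver X receptor prefers a spacing of 4 bases (DR4). In AMs, PPARγ works downstream of GM-CSF in the program by which these cells take up and break down surfactant lipids.

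At the deleted genes themselves, Rxra held a WT-only intron region (chr2:27744546-27744950) with 38, 46, 38 and 42 tags in WT 1_2, 1_3, 3 and 4, whereas the Rxra promoter was open in all lists with 32, 42, 38 and 36 tags in WT and 48, 39, 30 and 38 in KO 1_2, 1_3, 2 and 3. A tag is a read end counted by the peak caller at the summit of a peak. Open promoters do not check the deletion of exons. The positions of the loxP sites are not given in the sources used here. Therefore DNA removed by Cre and a closed site cannot be told apart at that intron. No WT-only region was assigned to Rxrb.

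The sequences of 9 WT-only regions are printed, 6 around a DR1 match and 3 around a summit. They are read from GRCm38 (mm10), 5′ to 3′. The first 6 are among the 10 strongest WT-only regions whose best DR1 match had at most 1 mismatch, and their capitals mark the 13-base match, turned to the strand that gives the repeat. These windows are centred on the match, whose centre lay from 5 bases (Bcat1) to 69 bases (Adrb1) from the summit. The windows of Adrb1 and Slc25a44 (68 bases) do not reach their summits. Zfp648 and Adrb1 had a full match. In the others a token gives the base of the DR1 pattern, the position counted from 1 at the 5′ end of the match, and the base of the site. It was G10T for Ccdc60, T4G for Slc25a44, C5T for Pnpla1 and G9A for Bcat1. Names are those of the nearest protein-coding gene by TSS.
Zfp648, chr1:154258115-154258175, minus strand: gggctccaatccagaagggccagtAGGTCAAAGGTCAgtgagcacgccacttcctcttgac
Adrb1, chr19:56637364-56637424, minus strand: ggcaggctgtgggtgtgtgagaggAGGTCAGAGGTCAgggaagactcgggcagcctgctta
Ccdc60, chr5:116295943-116296003, plus strand: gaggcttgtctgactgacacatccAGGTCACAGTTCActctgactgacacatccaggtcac
Slc25a44, chr3:88418070-88418130, plus strand: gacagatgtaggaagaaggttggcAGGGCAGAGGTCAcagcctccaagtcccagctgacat
Pnpla1, chr17:28872020-28872080, plus strand: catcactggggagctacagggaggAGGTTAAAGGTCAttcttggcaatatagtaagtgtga
Bcat1, chr6:144919968-144920028, plus strand: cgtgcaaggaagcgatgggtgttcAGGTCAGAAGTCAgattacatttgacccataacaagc
The other 3 are the 121 bases around the summits of the 3 strongest WT-only regions, where capitals mark a match to the AP-1 pattern TGANTCA and the Irak2 window holds none in capitals.
Irak2, chr6:113657018-113657138, plus strand: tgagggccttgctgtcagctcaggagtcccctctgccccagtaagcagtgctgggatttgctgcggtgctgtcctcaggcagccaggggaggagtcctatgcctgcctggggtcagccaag
Pmepa1, chr2:173263722-173263842, plus strand: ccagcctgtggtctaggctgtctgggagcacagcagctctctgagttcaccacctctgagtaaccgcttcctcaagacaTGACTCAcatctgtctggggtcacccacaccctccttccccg
Vwf, chr6:125573357-125573477, plus strand: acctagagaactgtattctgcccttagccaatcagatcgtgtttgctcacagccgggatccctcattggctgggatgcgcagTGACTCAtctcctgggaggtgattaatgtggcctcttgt
The Pmepa1 and Vwf summits each held an AP-1 match, and none of the 3 windows held a DR1 match.

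Among autosomal regions, 46378 had a peak in all 8 lists. Of the WT-only regions, 589 had a peak in all 4 WT lists and 1021 in 3. The list without a peak was WT 4 for 486 regions, WT 1_2 for 285, WT 3 for 180 and WT 1_3 for 70. That order follows the length of the lists, which held 59850, 63433, 64569 and 70711 autosomal peaks in WT 4, 1_2, 3 and 1_3. Just outside the rule lay 2097 regions with 2 WT lists and no KO list, 861 with 4 WT lists and 1 KO list, and 1124 with 3 WT lists and 1 KO list. Their median numbers of tags at the summit, averaged over the WT lists with a peak, were 15, 19.5 and 16.7, against 19.5 for WT-only regions in all 4 WT lists and 16 for those in 3. The smallest summits listed rested on 6 to 9 tags.

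**Figure D1:**
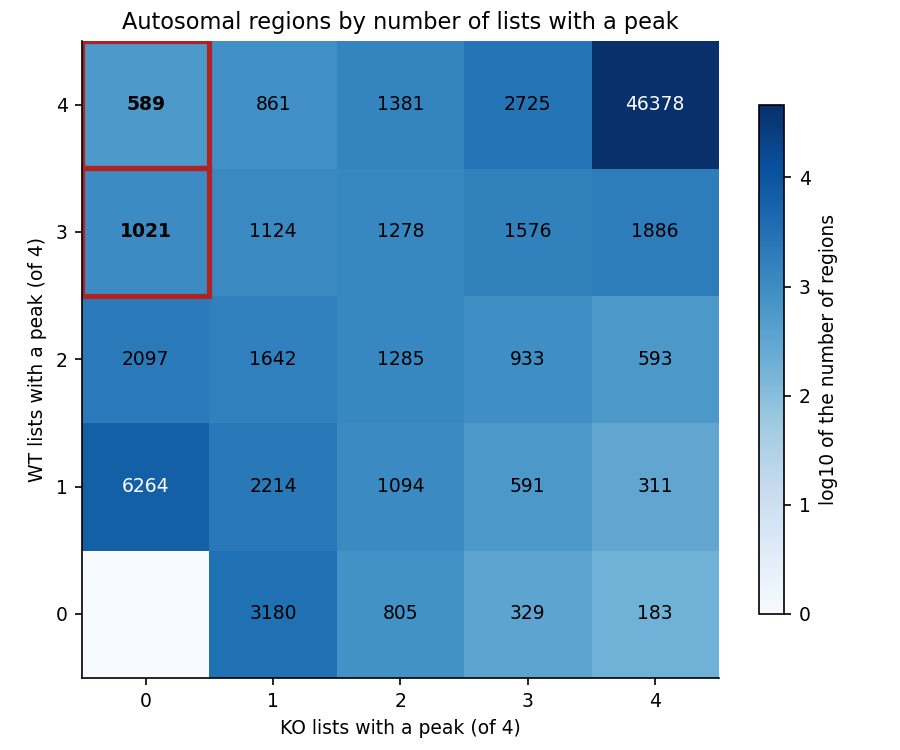
Number of autosomal regions by how many WT lists (vertical axis, 0 to 4) and KO lists (horizontal axis, 0 to 4) held a peak, with shading on a log10 scale. The red outline marks the 589 and 1021 WT-only regions, and the 46378 regions with a peak in all 8 lists are at the top right.

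The lists differed in length, which bears on these counts. WT lists held 64640.8 ± 4519 autosomal peaks and KO lists 60950.5 ± 2122 (SD, n = 4 each), a difference of -3690 (KO minus WT) that did not pass an exact permutation test (two-sided, p = 0.143). With every list reduced to the 60363 strongest peaks, the length of the shortest, the rule found 1025 WT-only and 882 KO-only regions, so the WT-only share of one-sided regions was 53.7% instead of 75.9%. Of the 1610 WT-only regions, 786 (48.8%) were also WT-only at equal length. Those in all 4 WT lists were retained in 471 of 589 cases (80.0%) and those in 3 in 315 of 1021 (30.9%). WT 1_3 was the longest list, and without it the rule found 663 WT-only and 1011 KO-only regions, a WT-only share of 39.6%. Without WT 1_2 or WT 3 the number of WT-only regions was 873 or 774. Fewer WT lists lower the count by construction, since all 3 that remain must then hold a peak.

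The choice was also made on 3 WT and 3 KO lists and read in the lists left out, for each of the 16 pairs of libraries. Of regions with a peak in all 3 WT lists and in none of the 3 KO lists used, 73.3 ± 14.3% had a peak in the WT list left out and 24.8 ± 7.28% in the KO list left out (SD over the 4 libraries of a genotype). The share was higher in the WT list in 16 of 16 pairs. It ranged widely among WT lists, with means of 90.0% for WT 1_3, 78.1% for WT 3, 69.1% for WT 1_2 and 56.1% for WT 4. KO lists gave 34.1% for KO 1_3, 27.0% for KO 3, 19.8% for KO 2 and 18.3% for KO 1_2. Every WT mean was above every KO mean. With lists of equal length the shares drew together within a genotype, at 76.2 ± 3.32% and 24.7 ± 1.70%. Chosen regions therefore had a peak in the unused KO list less often than in the unused WT list, but not rarely. This was not particular to WT-only regions. With the genotypes exchanged and the lists as deposited, 69.3 ± 6.24% had a peak in the KO list left out. In the WT list left out the share was 28.0 ± 13.5%, and the KO list was higher in 16 of 16 pairs.

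**Figure D2:**
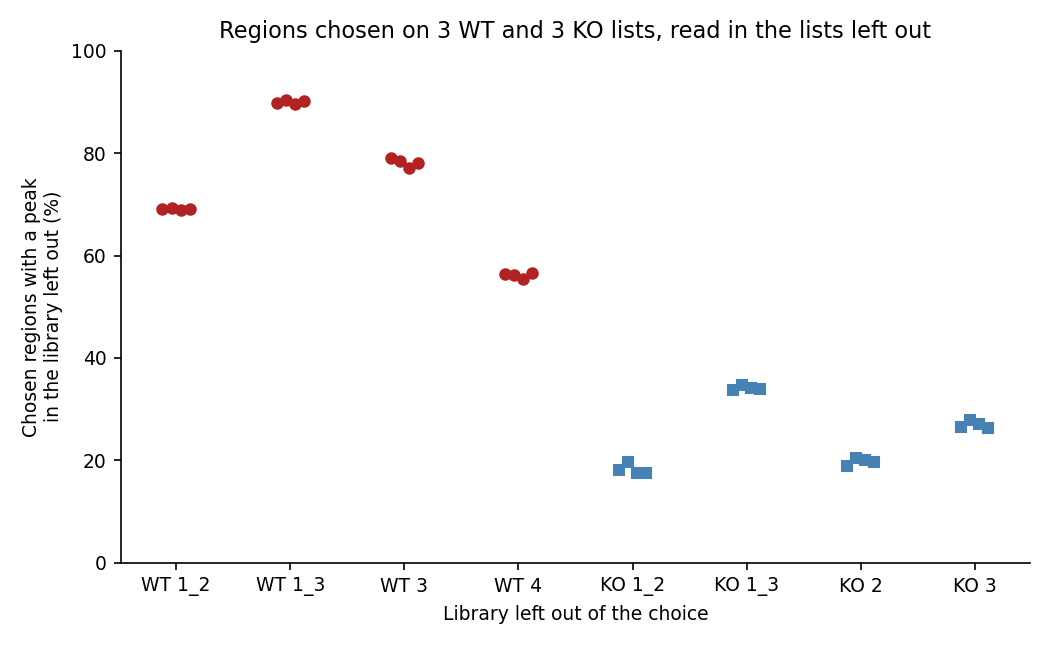
Share of regions chosen on 3 WT and 3 KO lists (vertical axis, percent) that had a peak in the library left out (horizontal axis), with 1 point for each of the 4 partner libraries left out at the same time. WT libraries (circles) lie between 55.4% and 90.4% and KO libraries (squares) between 17.6% and 34.8%.

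Irak2 had the strongest WT-only region, in an intron 18.6 kb from the TSS (chr6:113656877-113657237). IRAK2 is a kinase that carries signals from Toll-like and interleukin-1 receptors. Its summit had 117, 150, 146 and 197 tags in WT 1_2, 1_3, 3 and 4, and WT 4, the shortest WT list, was the highest. Strength is given below as a percentile, the rank of a peak among all peaks of its list by the caller's −log10 p, averaged over the lists with a peak. The Irak2 region stood at 73.2. None of the 4 always-open regions assigned to Irak2 within 10 kb of it was called different between genotypes in the limma fit described below, with log2 differences (KO minus WT) of -0.13 to 0.03.

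Pmepa1 encodes a membrane protein that is induced by TGF-β and dampens its signalling. An intron 12.8 kb from its TSS (chr2:173263575-173263963) had 92, 104, 113 and 84 tags, and 3 further WT-only regions lay in introns of the same gene, all within 17.8 kb of the TSS. Of these, chr2:173272049-173272659 had 71, 78, 89 and 57 tags, chr2:173266502-173266997 had 43, 52, 64 and 41, and chr2:173258479-173258959 had 39, 58, 40 and 45. Pmepa1 was nearest to 10 regions in all, so 4 of 10 were WT-only, and each of the 4 was in all 4 WT lists.

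Vwf encodes von Willebrand factor, a clotting protein typical of endothelium and platelets. Its intron region (chr6:125573224-125573563) had 121, 137, 122 and 106 tags, yet no list had a peak at the Vwf promoter. Of 6 endothelial markers, 1 (Pecam1) had an open promoter in all 8 lists and 3 in none, while the promoter of Cldn5 was open in 3 WT lists and no KO list. That of Kdr was open in 1 WT list and no KO list. The part of endothelial cells in the Vwf region was not tested. An always-open region 0.684 kb from it was not called different in KO (log2 difference -0.14, adjusted p = 0.286, limma).

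Upstream of Kcnj16, an inwardly rectifying potassium channel gene, 5 WT-only regions stood in a stretch of intergenic DNA 236 to 275 kb from the TSS, each in all 4 WT lists. The strongest (chr11:110715176-110715740) had 55, 66, 65 and 46 tags, and the enrichment over local background reached 18.4 ± 0.674 (SD, n = 4), the largest among the 10 strongest regions. Its neighbours at chr11:110727623-110728151 and chr11:110692835-110693236 had 54, 59, 53 and 41 tags and 56, 60, 61 and 40 tags. At all 3, WT 4 was the lowest library. The other 2 of the stretch had 43, 51, 63 and 29 tags (chr11:110731556-110732218) and 45, 54, 49 and 36 tags (chr11:110698433-110698757).

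Regions near 4 other genes completed the 10 strongest. Cdh26, a cadherin gene, lay 371 kb from an intergenic region with 45, 50, 49 and 46 tags (chr2:178801440-178801970). Ackr3, the gene of a scavenging receptor for the chemokine CXCL12, lay 85.1 kb from a region with 43, 40, 43 and 39 tags (chr1:90288793-90289317). In both the 4 WT libraries were close together. Peli2, a ubiquitin ligase gene of Toll-like receptor signalling, was nearest to an intergenic region with 36, 73, 55 and 37 tags, and an intron of Zfhx3, a homeobox factor gene, had 34, 75, 45 and 31. In these last regions WT 1_3 was the highest library and the spread was wide. All 10 were also WT-only with lists of equal length. That was fixed by their strength, since equal length removes only the weakest peaks of a list and adds none.

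**Figure D3:**
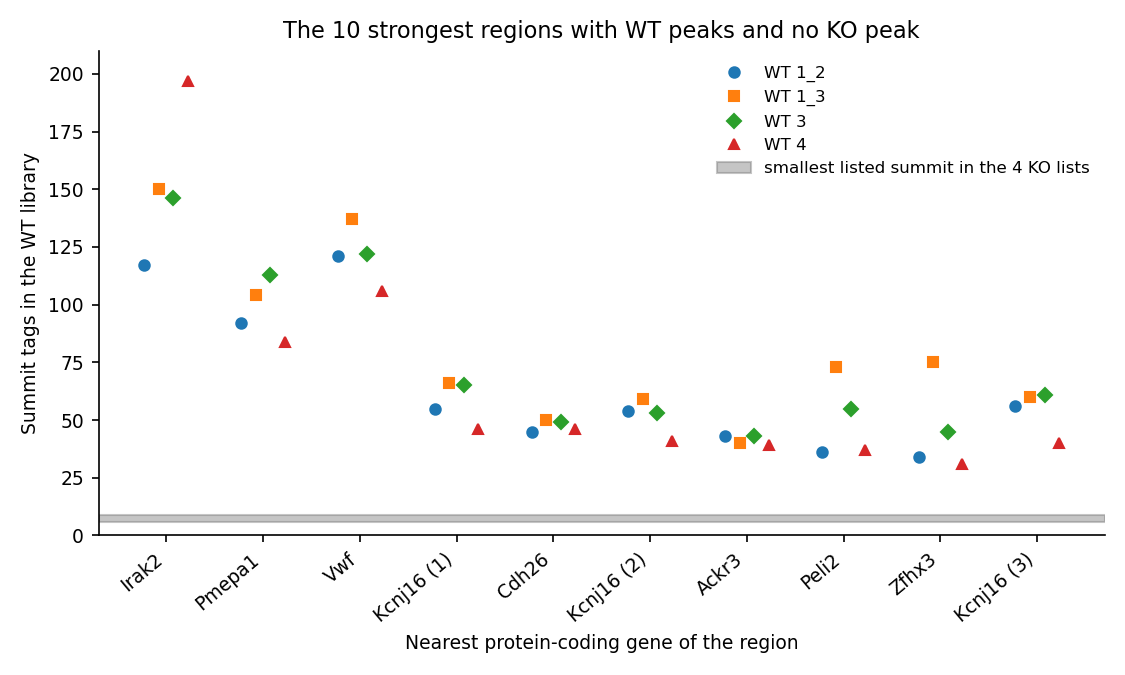
Summit tags (vertical axis) of the 10 strongest WT-only regions in WT 1_2, 1_3, 3 and 4 (symbols), named by the nearest protein-coding gene, with the smallest summit of each KO list as a grey band at 6 to 9 tags. Irak2, Pmepa1 and Vwf lie between 84 and 197 tags and the other 7 between 31 and 75. The band is the smallest over each whole list and not the caller's limit at these regions.

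Most WT-only regions were far weaker. Their median percentile was 14.9, against 15.3 for KO-only regions, 62.1 for regions in all 8 lists and 12 for 5736 regions that also had a peak in 3 or 4 lists but in both genotypes. Only 12 of 1610 stood above the 50th percentile. In WT 1_2, 1_3, 3 and 4 the listed WT-only regions had median summits of 17, 20.5, 17 and 15 tags, which was 22.3% to 25.0% of the median at always-open regions in the same library. Set on that scale, the smallest summits of the KO lists were 10.5% to 13.2% of their always-open median. A total of 569 WT-only regions (35.3%) stood at more than 2 times the highest KO value, 300 (18.6%) at more than 3 times, and 27 exceeded the always-open median itself. For those regions a KO summit of the WT height would have been well above the smallest that the KO lists recorded, while for many others it would have been near the limit of the lists. That smallest is taken over a whole list, while the caller compares each summit with its local background. The Maff region, at 101 to 122 tags, had an enrichment of only 2.47 ± 0.0851 (SD, n = 4), against 18.4 at 46 to 66 tags for the strongest Kcnj16 region. Tags above the smallest summit therefore do not measure how far a region fell in KO.

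The position of WT-only regions was distal. Their summits lay a median of 27.8 kb from the nearest protein-coding TSS, against 33.3 kb for KO-only regions, 18.5 kb for the regions in 3 or 4 lists of both genotypes, 11.9 kb for always-open regions and 15.3 kb for all autosomal regions. At 318 WT-only regions (19.8%) the distance was over 100 kb. A promoter, taken as a summit within 1 kb of a TSS, held 146 (9.07%, 95% Wilson interval 7.76 to 10.6), an exon 69 (4.29%), an intron 745 (46.3%) and intergenic DNA 650 (40.4%). Promoters held 25.6% of always-open regions, 19% of all autosomal regions, 10.1% of the regions in 3 or 4 lists of both genotypes and 3.52% of KO-only regions. With lists of equal length the promoter shares of WT-only and KO-only regions were 7.71% and 4.42%, and the median distances 26.1 and 27.8 kb. Intervals cover counting error only and treat regions as independent.

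Promoters with a WT-only region included those of genes used by macrophages. Fcrls, an Fc receptor-like gene of resident macrophages, had 21, 34, 20 and 14 tags 0.021 kb from its TSS. Mcemp1, which encodes a myeloid membrane protein, had no peak in WT 1_2 and 93, 73 and 72 tags in WT 1_3, 3 and 4, and none of its 3 always-open neighbours within 10 kb was called different in KO. The homeobox gene Pbx2 had 37, 51, 44 and 44 tags and Arhgap27, which encodes a GTPase-activating protein, 55, 79, 71 and 69. Thyn1, with no peak in WT 4, had 53, 71 and 65. The strongest by percentile was that of Kctd1, with 28, 33, 33 and 18 tags and an enrichment of 10.6 ± 2.31 (SD, n = 4).

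DR1 matches, allowing at most 2 mismatches on either strand within 100 bp of the summit, were present in 117 WT-only regions (7.27%, 95% Wilson interval 6.10 to 8.64). In all autosomal regions the share was 4.17%, in always-open regions 4.10%, in KO-only regions 3.71% and in regions in 3 or 4 lists of both genotypes 3.38%. Windows of the same length centred 300 bp to each side of WT-only summits held a match in 3.6%. A control pattern of the same letters, with the half-site read backwards, matched 2.92% of WT-only summits against 2.88% of all autosomal summits. With at most 1 mismatch, 25 WT-only regions (1.55%) had a match against 0.678% of all autosomal regions and 1 KO-only region. The control at that setting was also more frequent in WT-only regions, at 8 (0.497%) against 0.232% of all autosomal regions, with 2 KO-only regions. An excess over all autosomal regions at that setting was therefore not particular to DR1. A full match was present in 4 WT-only regions, among them those near Zfp648 and Adrb1 printed above. The share was 8.66% in WT-only regions of all 4 WT lists and 6.46% in those of 3. It was 8.93% in the 403 strongest, 5.21% in the 403 weakest and 2.05% at promoters. At equal list length a match was present in 8.0% of WT-only regions against 3.51% of KO-only ones, beside 3.32% and 3.29% for the control.

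The DR1 regions described here come from the 10 strongest of the 25 with at most 1 mismatch, so the other 15 were weaker. Of the full matches, the region near Zfp648 had 56, 77 and 48 tags in WT 1_2, 1_3 and 3 and no peak in WT 4, and that near Adrb1 had 18, 29, 19 and 15. The region near Ccdc60 (chr5:116295818-116296203) had 43, 46, 27 and 26 tags in WT 1_2, 1_3, 3 and 4, so that WT 1_2 and 1_3 stood above WT 3 and 4. An intron of Slc25a44, a mitochondrial carrier of branched-chain amino acids, had 29, 27, 47 and 42, with the order turned round. An intron of Pnpla1, a lipase-family gene, had 21, 29, 17 and 18. Bcat1 encodes the cytosolic enzyme that begins the breakdown of branched-chain amino acids, and its region 129 kb from the TSS had no peak in WT 1_2 and 35, 29 and 19 tags in WT 1_3, 3 and 4. The region near Apoa1 lay in an intron of Sik3 and had 15, 27, 25 and 19 tags.

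Patterns of other factors differed less or not at all from the autosomal background. CEBP (TTGCNNAA) was matched in 17.0% of WT-only regions and 14.4% of all autosomal regions, RUNX (TGTGGTT) in 11.6% and 8.86%, and RBPJ (GTGGGAA) in 6.65% and 5.11%. PU.1 (GAGGAAGT), the pattern of the factor that macrophages depend on, was matched in 11.6% and 10.5%. It was rarer in KO-only regions, at 7.23%. AP-1 (TGANTCA) was matched in 10.8% of WT-only regions and 11.8% of all autosomal regions but in 22.5% of KO-only regions, and at equal list length in 11.8% and 20.9%. Shares for DR4 (the half-site repeated with 4 bases between, at most 2 mismatches) were 2.86% and 2.69%, for the E-box CACGTG 4.29% and 5.22%, for STAT (TTCNNNGAA) 6.46% and 6.02%, and for SMAD (GTCTAGAC) 0.373% and 0.268%. DR1 and DR4 share the half-site, which alone and without mismatch was present in 19.5% of WT-only and 15.1% of all autosomal regions. A match describes letters and not a bound site. Of the 117 regions with a DR1 match, 15 also held PU.1 and 20 CEBP, and 679 WT-only regions (42.2%) held none of the 10 patterns.

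**Figure D4:**
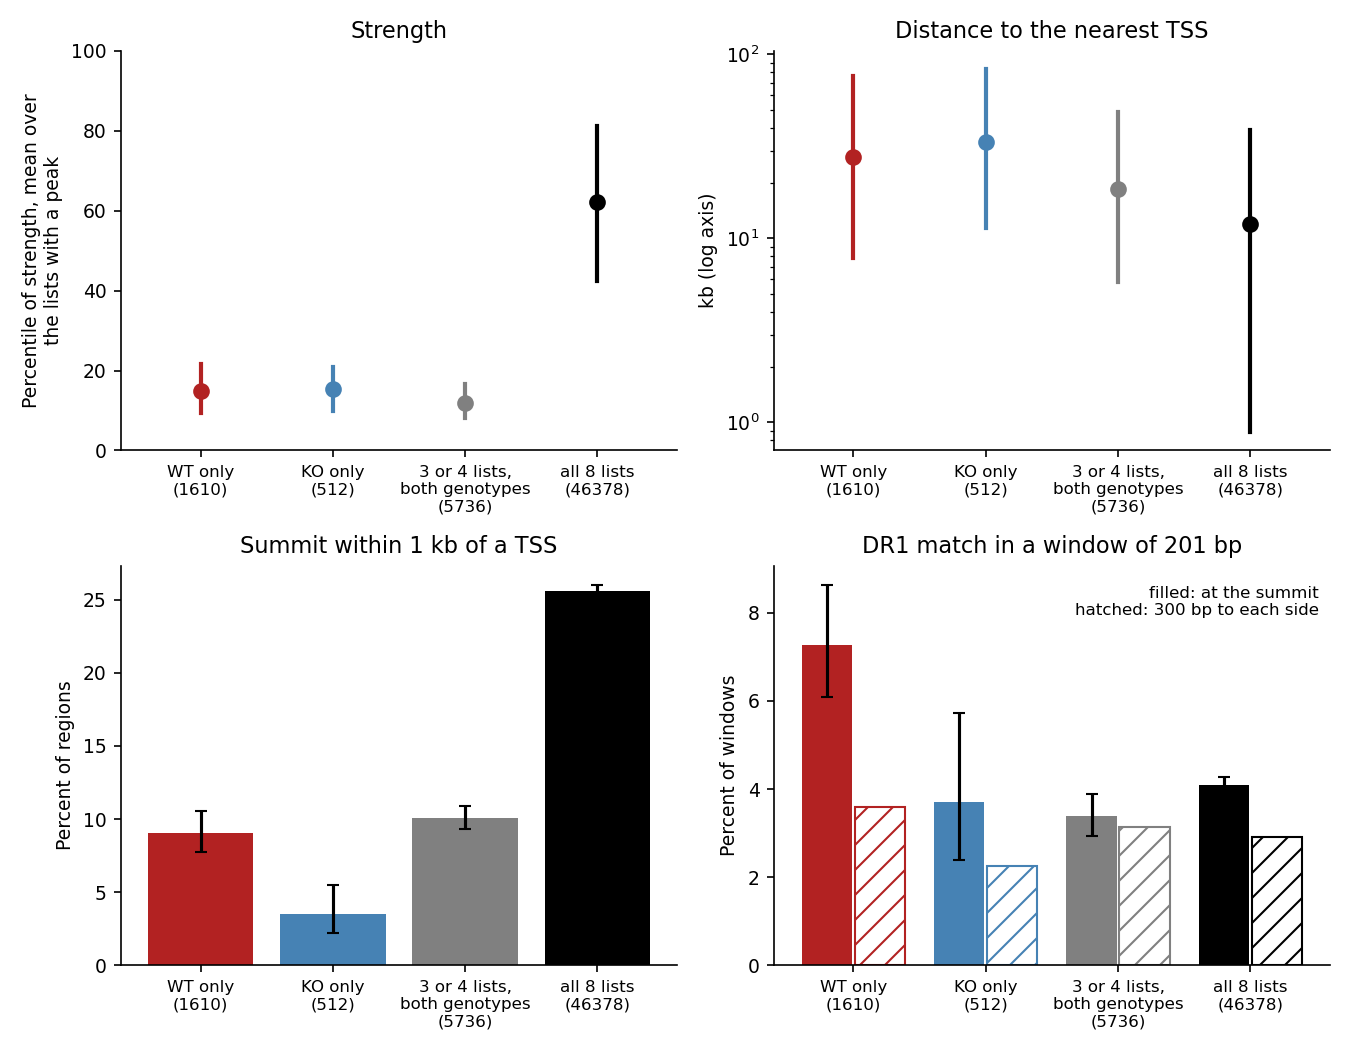
WT-only, KO-only, equally rare and always-open regions (horizontal axes, with their numbers) compared in strength percentile and TSS distance in kb on a log axis (points are medians and lines span the quartiles), in the percent at promoters, and in the percent with a DR1 match at the summit (filled) or 300 bp to each side (hatched). Error bars are 95% Wilson intervals. The DR1 share of WT-only regions is 7.27% at summits and 3.6% beside them, against 4.10% and 2.92% for always-open regions.

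The 1610 regions were spread over 1334 nearest genes. A single WT-only region was nearest to 1138 genes, while 140 genes had 2, 42 had 3, 7 had 4, 4 had 5 and 3 had 6, so 56 genes with at least 3 held 192 regions. KO-only regions were nearest to 441 genes, 15 of them with at least 3. WT-only regions rarely adjoined each other: 127 (7.89%) lay within 10 kb of another, and the median gap was 250.1 kb. For KO-only regions, of which there were fewer, 7.81% had another of their kind within 10 kb. Per chromosome the WT-only share of regions ran from 1.39% on chromosome 19 to 2.36% on chromosome 16.

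Kcnj16, Tns1 and Dct each had 6 WT-only regions. For Kcnj16 they were 6 of 12 regions, with no KO-only region. For Tns1, which encodes an actin-binding protein of focal adhesions, they were 6 of 41, weak at 9 to 62 tags, and 5 lay in introns. The 6 assigned to Dct, an enzyme gene of melanin synthesis, lay 216 to 409 kb away inside introns of Gpc6, a glypican gene, with the strongest pair at 42, 43, 31 and 25 tags and 28, 36, 30 and 25 tags. Nearest genes were often distant in this way. The 5 regions assigned to Eef2kmt lay 407 to 494 kb from its TSS and the 4 assigned to Inhba, an activin subunit gene, 663 to 802 kb, and no link between such a region and the gene was measured. Other genes with 4 or 5 were Cdh26 with 5 of 19, Trib2 with 5 of 26, Jarid2 with 5 of 33, Kcnj15 with 4 of 30, Pmepa1 with 4 of 10, Ktn1 with 4 of 14, Bcat1 with 4 of 17 and 4930523C07Rik with 4 of 16. Trib2 is a pseudokinase gene and Jarid2 encodes a partner of Polycomb repressive complex 2. At the 14 genes with at least 4, 42 of 66 WT-only regions were also WT-only at equal list length.

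Regions open in all 8 lists were then examined, because they have a tag value in every library and were no part of the rule, although the libraries are the same. Across all 46378, limma called 3160 (6.81%) lower and 2811 (6.06%) higher in KO (adjusted p under 0.05). Of 1633 within 10 kb of a WT-only region, 187 (11.5%) were lower and 81 (4.96%) higher, with a median log2 difference of -0.01 against 0.05 over all. Near KO-only regions the balance turned the other way, at 41 lower (7.79%) and 63 higher (12%) of 526. Scaling by total tag depth instead of each library's median moved this balance: 127 were lower and 12 higher near WT-only regions, and 1959 (4.22%) and 541 (1.17%) in all. Calls of higher regions near WT-only regions also depended on single libraries, at 49 without WT 1_3, 49 without WT 3, 50 without KO 1_2, 52 without KO 2 and 46 without KO 3.

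At the 14 genes with the most WT-only regions, 132 always-open regions were assigned to the same genes, of which 52 (39.4%) were lower in KO and 2 (1.52%) higher. At all genes with a WT-only region, 858 of 7774 always-open regions were lower in KO and 381 higher. The 14 genes were chosen by peaks present in WT and absent from KO in the same libraries. Their share therefore describes these genes and is not a test independent of that choice. Each of the 14 genes had at least 1 lower region, and in 11 genes it lay within 10 kb of a WT-only region. The clearest stood inside the cluster upstream of Kcnj16 (chr11:110702067-110702544). It had 157, 173, 169 and 117 tags in WT 1_2, 1_3, 3 and 4 and 21, 15, 10 and 14 in KO 1_2, 1_3, 2 and 3, so every KO library was below every WT library, with a log2 difference of -3.13 ± 0.165 (SE, adjusted p = 3.11e-19, limma). In Pmepa1 (chr2:173276370-173276804) the tags were 114, 133, 142 and 137 in WT and 18, 11, 10 and 11 in KO (-3.16 ± 0.177, adjusted p = 2.12e-18, limma). A second always-open Pmepa1 region had 90, 135, 115 and 128 tags in WT and 31, 31, 27 and 23 in KO. Every always-open region assigned to Kcnj16, Pmepa1 and Bcat1 was lower in KO, 2, 2 and 5 in number.

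Bcat1 and Inhba had regions of the same kind. At chr6:144917073-144917505, 2.74 kb from the WT-only region whose DR1 match is printed above, the tags were 109, 110, 106 and 80 in WT and 11, 19, 12 and 13 in KO (-2.63 ± 0.177, adjusted p = 1.41e-15, limma). At chr13:16715493-16716068, assigned to Inhba, they were 100, 130, 103 and 70 in WT and 14, 14, 12 and 16 in KO (-2.56 ± 0.171, adjusted p = 1.19e-15, limma). In neither region did the groups overlap. Smaller differences held near Ktn1 (-1.35), Eef2kmt (-1.32), Kcnj15 (-0.92), Tns1 (-0.79), Dct (-0.77) and 4930523C07Rik (-0.73). The Dct value had an adjusted p of 0.00633 in the limma fit and 0.0503 without WT 3. The region within 10 kb of a Trib2 WT-only region was not called (-0.38, adjusted p = 0.239, limma), though 6 of the 9 always-open regions assigned to Trib2 were lower. The 2 higher regions were assigned to Cdh26, with 133, 165, 156 and 80 tags in WT and 161, 165, 170 and 166 in KO, and to Inhba.

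**Figure D5:**
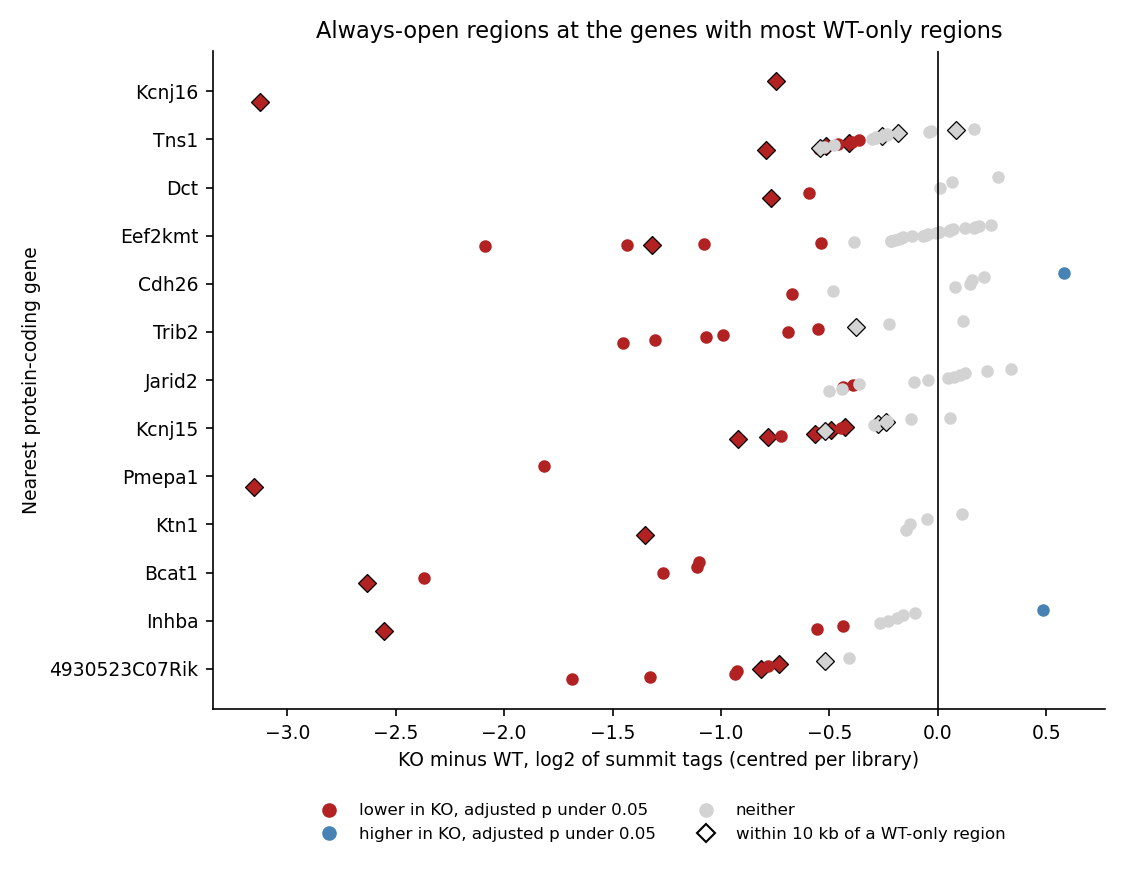
Difference in log2 summit tags (KO minus WT, centred per library, horizontal axis) of the 129 regions open in all 8 lists at 13 of the genes with most WT-only regions (vertical axis). Red marks the 51 lower and blue the 2 higher in KO at an adjusted p under 0.05, and outlined diamonds lie within 10 kb of a WT-only region. Kcnj16, Pmepa1, Bcat1 and Inhba each reach below -2.5.

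Gene lists of AM biology were read against the 2.00% of all autosomal regions. WT-only regions were 12 of the 581 assigned to AM identity genes (2.07%), 36 of 1465 at macrophage transcription factors (2.46%), 16 of 719 at lipid handling genes (2.23%), 14 of 589 at genes of GM-CSF, TGF-β and Notch signalling (2.38%), 9 of 586 at innate sensing genes (1.54%), 7 of 481 at apoptosis and cell cycle genes (1.46%) and 2 of 148 at genes of immature macrophages and monocytes (1.35%). These shares lay near that of all autosomal regions. KO-only regions numbered 2, 6, 3, 3, 0, 1 and 1 in the same order. Among always-open regions, AM identity genes had 54 of 364 lower in KO (14.8%) and 23 higher, and lipid handling genes 66 of 460 lower (14.3%) and 29 higher, above the 6.81% of all always-open regions. The AM identity list includes genes whose RNA the paper reports as lower in these KO cells, such as Cd2, Cidec, Krt79, Cpne5, Fabp1, Lima1 and Maff. The 2 lists also share genes, among them Pparg, Cidec, Lpl and Abcg1. Their shares are therefore neither independent of the study's findings nor of each other. The counts at transcription factors were 57 lower and 59 higher of 896, at the signalling genes 19 and 26 of 340, at innate sensing genes 14 and 18 of 390, at apoptosis and cell cycle genes 12 and 29 of 299, and at immature macrophage genes 7 and 10 of 84.

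Among AM identity genes, Marco, the scavenger receptor for bacteria and particles, had 3 WT-only regions of 24. They were weak, at 21 to 28 tags for the strongest and 10 to 14 for the others. The strongest of the list lay in Maff, a small Maf transcription factor gene, with 101, 122, 113 and 101 tags. Its always-open neighbour at chr15:79354602-79355139 had 377, 439, 372 and 376 tags in WT and 306, 285, 267 and 209 in KO, a difference of -0.34 ± 0.085 (adjusted p = 0.0048, limma). Of the 6 always-open Maff regions within 10 kb, 3 were lower and 3 were not called. Plet1 had 61, 58 and 42 tags in an intron with no peak in WT 3, and Ear1, an eosinophil-associated ribonuclease gene, 18, 27, 15 and 15. A region 4.7 kb from Krt79, a keratin gene, had 18, 28 and 25 tags and no peak in WT 4. No WT-only region was assigned to Pparg, Car4, Siglecf, Fabp4 or Cidec.

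Of the transcription factor genes, Fos had the strongest WT-only region, 6.25 kb from the TSS with 94, 104, 86 and 75 tags. Always-open regions assigned to Fos differed in direction. The one 1.20 kb from that region was not called (0.13, adjusted p = 0.386, limma). One 4.64 kb away was higher in KO (0.42, adjusted p = 0.000251, limma) and one 10.8 kb away lower (-0.42, adjusted p = 0.0168, limma). Runx1 had 3 WT-only regions, the strongest with 61, 63 and 64 tags and no peak in WT 4. Of 42 always-open Runx1 regions, 8 were higher in KO and 3 lower, beside 6.06% higher and 6.81% lower of all always-open regions. Spi1, which encodes PU.1, had 42, 61 and 48 tags with no peak in WT 4. Cebpa had 23, 18 and 12 with no peak in WT 1_2. Vdr, which encodes a partner of RXR, had 16, 22 and 13 with no peak in WT 3.

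Lipid genes with a WT-only region covered uptake, synthesis and breakdown. Npc2, which moves cholesterol out of lysosomes, had 72, 74, 60 and 45 tags at a region 22.3 kb away. Elovl6, a fatty acid elongase gene, had 36, 28, 16 and 20 tags in an intron. An always-open region 9.46 kb from that region was lower in KO (-0.76 ± 0.173, adjusted p = 0.00179, limma). The furthest of those called lower at the gene stood at -1.17 ± 0.189 (adjusted p = 1.42e-05, limma), 153 kb from a WT-only region. Gpam, the first enzyme of glycerolipid synthesis, had 17, 31, 17 and 12 tags, and an always-open region 5.39 kb from it had 39, 44, 45 and 36 tags in WT and 19, 20, 13 and 20 in KO. The promoter region of Pnpla3, a lipid droplet protein gene, had 33, 32 and 24 tags with no peak in WT 1_2. Always-open regions 0.825 kb from it and 1.29 and 2.53 kb from the Npc2 region were not called different in KO, with log2 differences of 0.03 to 0.09. Another Npc2 region, 10.6 kb away, was lower (-0.36, adjusted p = 0.0191, limma). Ppargc1b, a coactivator gene of PPARs, had 3 WT-only regions, all in introns, none above 20 tags and each in 3 WT lists.

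In the signalling list, Pmepa1 held 4 of the 14 regions. Notch2, a receptor gene, had 63, 85, 68 and 68 tags in an intron. Smad6, an inhibitor of BMP and TGF-β signalling, had 41, 41 and 39 with no peak in WT 1_3, and Itgb8, an integrin that activates latent TGF-β, 14 to 24 at its promoter. In the innate list Irak2 led, followed by Tlr4, the endotoxin receptor gene, with 3 regions of at most 30 tags. Tnfrsf1b, a TNF receptor gene, had 53, 65, 53 and 43. In the apoptosis and cell cycle list Ccnd2, a cyclin gene, had 71, 92, 92 and 58 tags in WT 1_2, 1_3, 3 and 4, and none of the 5 always-open Ccnd2 regions within 10 kb was called different in KO. Itgam, which encodes CD11b of immature AMs, had 58, 55, 54 and 47 at a region 3.36 kb from its TSS.

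The label of the cells was checked against promoter peaks. Of 13 AM markers with an annotated TSS, 12 were open in all 8 lists and Chil3 in none. No T cell (5) or B cell (4) marker was open in all 8 lists. Open promoters in all 8 lists were also found for 3 of 6 neutrophil, 3 of 8 lung epithelium, 2 of 5 dendritic cell and 3 of 5 interstitial macrophage and monocyte markers. Among them were Mmp8 (neutrophil) and Cdh1 (lung epithelium), which the paper counts as AM-core genes. Background depth was 1.42 to 2.26 tags per 200 bp in WT and 1.12 to 1.86 in KO. Tags at always-open regions correlated across regions with r of 0.962 to 0.975 within genotypes and 0.944 to 0.955 between them, which describes libraries that share their regions and no test.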

How the data were processed

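ATAC-seq peak lists of 8 libraries of alveolar macrophages (AMs) were used, 4 per genotype, grouped by their titles. According to the study's methods and the submitters' processing notes, the authors used Cutadapt for trimming, Bowtie2 for alignment of the paired-end reads to mm10 and MACS3 for calling peaks in each library at a q-value of 0.05, after dropping duplicates and poorly mapped pairs. Replicates were not pooled. The deposited lists give each peak's position, a display score that was not used, the fold (the ratio of summit to local background, each with 1 added), and −log10 p and −log10 q values. The largest q in the deposited lists was 0.0465. These lists hold no read counts, so the count test of the study was not fitted, and a deeper library lists weaker sites.

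Peaks sharing at least 1 base were merged. Strength was the percentile of −log10 p within a list. Summit tags were recovered from the fold together with −log10 p. Whole tags returned the listed p for 100% of peaks within a relative error of 1e-05. Genes were assigned by the nearest protein-coding TSS of GENCODE M21 on GRCm38, and sequences were read from the same build. Pattern matches on either strand were counted up to 100 bp from the summit of a region's strongest peak. For regions in all 8 lists, log2(tags + 0.5) was centred on the median of each library and compared between genotypes with limma 3.58.1 in R 4.3.3 (trended prior variance, Benjamini-Hochberg over all 46378 regions), after a check on simulated data. Such differences understate changes of low summits. The number of peaks was compared by an exact permutation test. Other values used Python 3.11.15 with scipy 1.17.1.

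The WT-only regions, gene lists, markers and comparisons were chosen with earlier results of these data known. Named were the 10 strongest regions, genes with at least 5 regions or the top 10 and ties, at most 5 genes of each of 7 lists by their strongest region, the 10 strongest promoter regions, the 10 strongest regions with a DR1 match of at most 1 mismatch, and the deleted genes. Other genes of the lists (Marco, Krt79, Ppargc1b, Cebpa, Vdr, Smad6, Itgb8, Pparg and others) and single always-open regions were named after their values had been seen. The sources used here do not say whether replicates 1_2 and 1_3 came from the same animal. A few genes covered by the naming rule are not reported here. P-values measure the spread between these libraries, part of which may be technical.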

Additional observations from a re-analysis of the deposited data

Results flagged for a closer look

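Among 86 sets of 4 values from 1 genotype (70 WT-only regions and 16 measures per library, some of them in KO), 1 held a library far from the other 3. By chance alone about 1 in 20 does. The WT-only region 6.38 kb from the TSS of Csf1r, the receptor of macrophage colony-stimulating factor, had 18, 18, 18 and 27 tags, with WT 1_3 highest, and the gap below it was 1 times the whole range. WT 1_3 had the longest list and the highest background depth, 2.26 tags per 200 bp, and the part of depth in this value was not tested.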

How the results depend on the processing

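The number of WT-only regions was 1025 with lists of equal length, 3122 with 1_2 and 1_3 as 1 sample, 589 when all 4 WT lists had to hold a peak, and 663 to 2382 without single libraries. Their share of one-sided regions was 53.7%, 73.4% with summit windows of 200 bp, 72.5% with 1_2 and 1_3 as 1 sample, and 39.6% to 90.8% without single libraries. A smaller number of lists changes both by construction. Median TSS distance was 26.1 kb at equal length, 26.4 kb at −log10 q of at least 5, 33.0 kb for all 4 WT lists, 18.2 kb with long noncoding TSSs added and 24.9 to 31.6 kb without single libraries. Promoter shares were 7.71%, 6.62% for all 4 WT lists, 12.2% with a window of 2 kb and 6.94% to 10.1% without single libraries. The DR1 share was 8.66% for all 4 WT lists, 1.55% with at most 1 mismatch, 4.41% within 50 bp of the summit and 6.69% to 8.01% without single libraries. The strength percentile was 19.7 for all 4 WT lists and 14.9 to 17.7 without single libraries. The share with a peak in the WT list left out was 55.0% when 2 of 3 WT lists sufficed.

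The difference in autosomal peaks ranged from -5287 to -1667 without single libraries, and without WT 4 the exact permutation test gave p = 0.0571. With 1_2 and 1_3 averaged the smallest p that this test allows is 0.1, so that alternative could not pass. At −log10 q of at least 5 the exact permutation test gave p = 0.143. Calls of always-open regions within 10 kb of WT-only regions were 127 lower and 12 higher with total tag depth, 53 higher with quantile normalisation, 47 higher with 1_2 and 1_3 averaged, and 149 to 177 lower and 46 to 109 higher without single libraries. Within 50 kb they were 652 and 294. In all always-open regions, calls were 1959 lower and 541 higher with total tag depth, and 2483 to 2993 lower and 1790 to 3689 higher without single libraries, the lowest count of higher regions being without KO 3. Deviations of same-numbered libraries correlated at 0.055, 0.117 and 0.037 for 1_2, 1_3 and 3. These were low but above every pair of different numbers, which ran from -0.068 (WT 3 with KO 1_3) to 0.032 (WT 3 with KO 2). The main fit treated the libraries as unpaired, and what same-numbered libraries share was not tested. With the replicate block, 124 always-open regions near WT-only regions were higher and 177 lower, 4371 and 3058 were so in all, and the difference in peaks was -4811 (p = 0.25, exact sign-flip test, the smallest it allows). For other moved values the cause was not tested. Equal list length was planned for the number, position, strength and DR1 share of WT-only regions, while positions, strength and patterns of KO-only regions, other patterns of WT-only regions, and the count of WT-only regions found at both lengths, were added after seeing the data. Depth limits the lists to summits of at least 6 to 9 tags.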
